A study of Vitis vinifera with 156 samples.

Results

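The genes described here are 150 of the 42413 genes in a count table from dormant grapevine buds, chosen by their RNA level, which was higher late than early in storage at each of 3 constant cold temperatures. For every gene, log2(CPM + 1), with CPM the counts per 1000000 counts of a library, was averaged over days 55 and 69 and over days 13 and 20 at 2, 7 and 11 °C, and the early mean was subtracted from the late mean. Of the 7171 genes with a mean of at least 10 CPM in the 34 libraries used, the 150 whose smallest of the 3 changes was largest were taken, and 1697 of the 7171 had a smallest change above 0. The counts at 4 °C, at 22 °C, in a fluctuating regime and on other days at 2, 7 and 11 °C did not enter the ranking. The rule and the tests were, however, set with earlier results of these data known. The lines of the table carry no gene identifier, so members are named by line number, and no function, position or sequence is given for them.

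Buds of the grapevine Vitis vinifera, cultivar Cabernet Sauvignon, were collected in endodormancy and held on cuttings in growth chambers at constant 2, 4, 7, 11 or 22 °C. They were sampled on days 7, 13, 20 and 26, and again on days 34, 41, 55 and, except at 22 °C, 69. In a second experiment, run at the same time, cuttings kept at 2, 7 or 11 °C until day 26 were moved to a daily cycle around 7 °C with a swing of 5 °C to either side, between 12 and 2 °C, and sampled on days 34, 41, 55 and 69. These 3 arms are called after 2 °C, after 7 °C and after 11 °C. Untreated buds of day 0 formed a pretreatment group. There were 52 groups of 3 libraries. They read only the 3′ end of messenger RNA, so that long and short transcripts give counts on 1 scale.

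Endodormancy is the state in which a bud does not grow even under warm conditions because of controls within the bud itself, and a long period of chilling releases it. In grapevine the same weeks of cold also bring cold acclimation, in which bud tissue comes to survive deeper freezing. In dormant buds of woody plants generally, these weeks are known for changes in abscisic acid and gibberellin metabolism, for the conversion of starch to soluble sugars, and for dehydrin proteins that protect membranes and other proteins. Which of these processes the 150 genes belong to is not known from the table.

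Library totals ran over the range 27485 to 7138863 counts, with a median of 2228888, and 10 libraries under 500000 counts were left out. The words First and Second in the library names divided the libraries into sets of 86 and 70, treated here as batches. The constant 2, 7 and 11 °C and pretreatment libraries were in the First set and the 4 °C and fluctuating ones in the Second, while the 22 °C series changed sets at day 26. Temperature and set therefore cannot be told apart when 4 °C is placed beside 2, 7 or 11 °C, and each test below stayed within 1 set or carried a term for the set. The labels do not say that replicates came from separate vines or cuttings, so p-values measure only the spread between these libraries. In whole buds, a change in the share of a cell type cannot be told apart from a change of RNA per cell.

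In the libraries of the choice the changes, which are descriptive, had a median of 0.95 on the log2 scale at 2 °C, 1.05 at 7 °C and 1.11 at 11 °C. They spanned 0.64 to 3.54 at 2 °C, 0.66 to 3.19 at 7 °C and 0.65 to 3.62 at 11 °C. The change was largest at 2 °C for 37 members, at 7 °C for 48 and at 11 °C for 65. The last gene taken had a smallest change of 0.640 and a mean of 58.6 CPM, and the first left out had 0.638 and 10.4 CPM. The mean of days 34 and 41, which the choice did not use, was above the late mean for 12 members at 2 °C, 15 at 7 °C and 16 at 11 °C. By those days the median member had covered 59.2% of its change at 2 °C, 61.8% at 7 °C and 54.6% at 11 °C, and these shares share their early and late libraries with the choice.

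The members covered a wide range of abundance. Over the 146 libraries kept, a member averaged between 7.88 and 23672 CPM with a median of 45.4 CPM, 49 members reached 100 CPM, 9 reached 1000 CPM and 58 stayed under 30 CPM. A member under 30 CPM rests on few counts in the shallow libraries, where 3 counts of 500000 already make 6 CPM.

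At constant 4 °C the members showed the same direction in libraries that the ranking had not used. The 6 late libraries (days 55 and 69) had a mean log2(CPM + 1) over the members of 5.67 to 6.26 with a median of 6.05, and the 6 early ones (days 13 and 20) 4.61 to 5.21 with a median of 4.98. Every late library stood above every early one. Over the 7171 genes past the abundance minimum the same mean was 4.44 to 4.92 in the late libraries and 4.68 to 4.95 in the early ones, so these ranges overlapped and the late one reached lower.

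**Figure D1:**
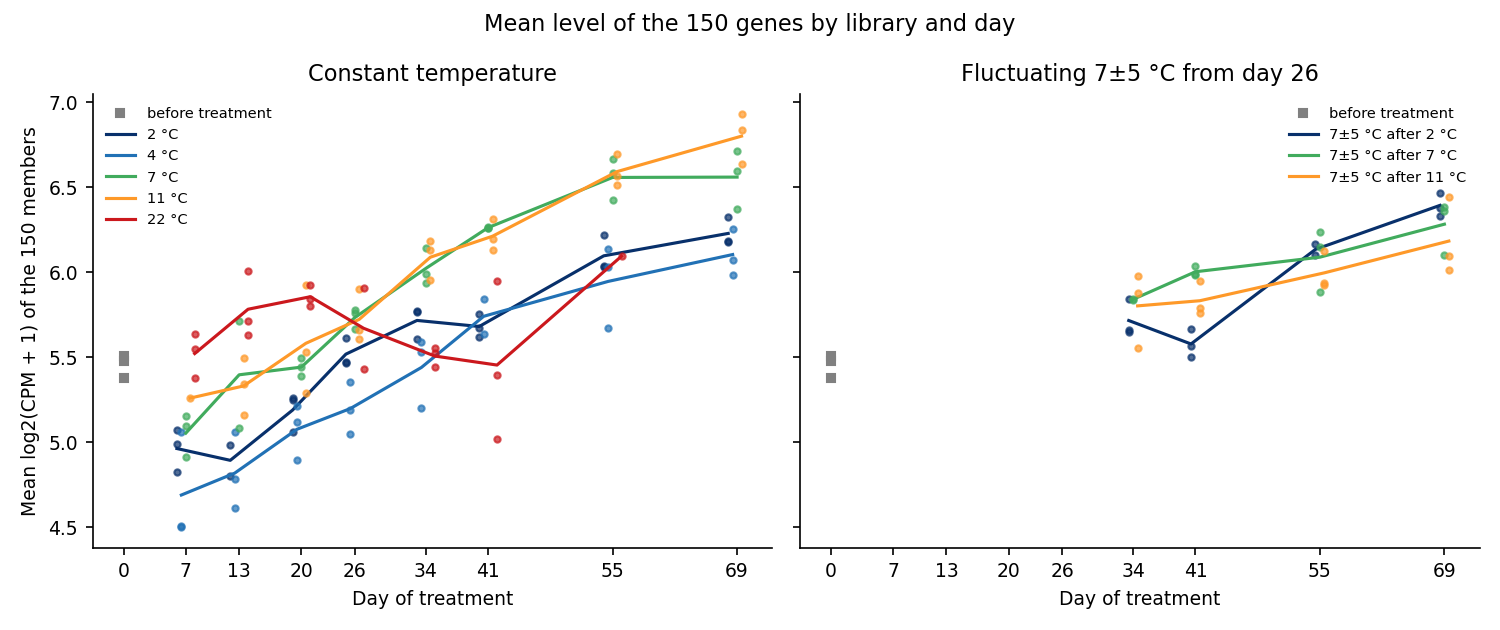
Mean log2(CPM + 1) of the 150 genes against day of sampling, at constant temperature on the left and in the fluctuating arms on the right; points are libraries and lines join group means. At 4 °C the late libraries (5.67 to 6.26) all lie above the early ones (4.61 to 5.21), while the 22 °C points follow no single direction. The 22 °C series changed library sets at day 26, so its line also holds any difference between the sets. With a term for the set, the slope at 4 °C minus that at 22 °C had a median of 0.03 per 10 days (median SE 0.25) and 0 members called.

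Day by day at 4 °C, the group mean was 4.69 on day 7, 4.82 on day 13, 5.08 on day 20, 5.20 on day 26, 5.44 on day 34, 5.74 on day 41, 5.95 on day 55 and 6.11 on day 69. The SD between the libraries of a day lay between 0.14 and 0.32 (n = 3, but 2 on day 41). Each step between neighbouring days was upward, but several were smaller than that spread. The median member moved most from day 34 to day 41, by 0.30, and least from day 20 to day 26, by 0.06. Over all genes past the abundance minimum the mean was 4.60, 4.92, 4.76 and 4.81 on days 7, 13, 20 and 26. It was 4.91, 5.09, 4.52 and 4.85 on days 34, 41, 55 and 69. This mean thus also rose from day 7 to day 13 and from day 34 to day 41, and fell from day 41 to day 55. The members' steps were not measured against it, so their order may differ relative to all genes. On day 69 73 members had their highest group mean of the 8 days, and on day 7 75 had their lowest.

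Gene by gene, late minus early at 4 °C was positive for all 150 members, with a median log2 fold change of 1.16, an interquartile range of 0.87 to 1.52 and a full range of 0.18 to 3.57. Without replicate 1, 4 members were negative (lowest -0.58), and without replicate 2, 2 were (lowest -0.65). Over all 10303 genes tested the median was -0.01 and 48.97% were positive. By edgeR's quasi-likelihood test with Benjamini-Hochberg adjustment over all genes tested, 84 members (56%) were higher late and 0 lower, where 3.64% of all genes were called higher and 5.45% lower. The 84 had fold changes of 0.72 to 3.57 with a median of 1.45, and in 73 of them it reached 1 or more. In 49 members (32.7%) every late library was above every early one, against 1.61% of all genes tested. The count depended on single replicates, as it was 19 without replicate 1, 5 without replicate 2 and, without replicate 3, 80.7% of the members. The share of all genes called higher moved with it, at 0.324%, 0.0672% and 10.3%, while the members' median stayed at 0.99, 1.18 and 1.38.

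Gene 23279 had the largest smallest change among the 7171 genes past the abundance minimum and so ranked first in the choice. At 4 °C it had 26.0 to 78.6 CPM late with a median of 50.3 CPM, and 2.31 to 6.16 CPM early with a median of 4.71 CPM. The 2 groups did not overlap, and the log2 fold change was 3.57 ± 0.29 (SE) with an edgeR adjusted p of 4.58e-05. The pretreatment libraries held 4.30, 4.82 and 5.42 CPM, within the range of the early 4 °C libraries.

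Gene 40756 ranked second. It had 20.6 to 86.1 CPM late with a median of 77.8 CPM, and 11.8 to 26.6 CPM early with a median of 19.1 CPM. All but 1 late library stood above every early one. The log2 fold change was 1.98 ± 0.36 (SE) with an edgeR adjusted p of 0.00547, and the call was lost without replicate 1 (adjusted p = 0.148) and without replicate 2 (adjusted p = 0.161).

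**Figure D2:**
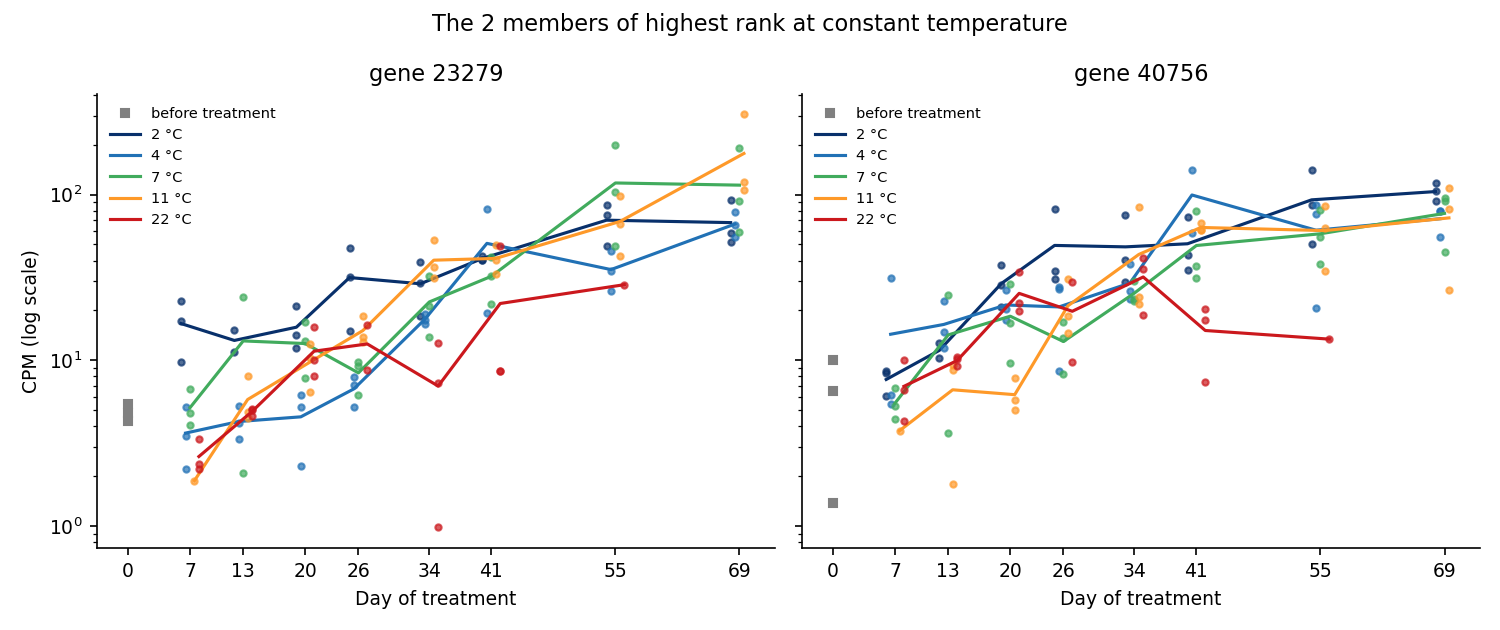
CPM on a log scale against day for gene 23279 (left) and gene 40756 (right) at constant 2, 4, 7, 11 and 22 °C; points are libraries and lines join group means. At 4 °C gene 23279 lies at 26.0 to 78.6 CPM on days 55 and 69 and at 2.31 to 6.16 CPM on days 13 and 20.

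The lowest 4 °C changes belonged to genes 21354 and 17381, and neither was called. Gene 21354 had 4.09 to 23.7 CPM late (median 5.36 CPM) and 2.61 to 13.4 CPM early (median 6.46 CPM), with a log2 fold change of 0.18 ± 0.52 (SE) and an edgeR adjusted p of 0.882. Gene 17381 had 36.3 to 50.7 CPM late (median 39.3 CPM) and 24.1 to 54.8 CPM early (median 36.5 CPM), with a log2 fold change of 0.24 ± 0.28 (SE) and an edgeR adjusted p of 0.663. In both genes the late and early ranges overlapped, and without replicate 1 the fold change was -0.58 for gene 21354 and -0.028 for gene 17381.

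In the libraries the choice used, gene 21354 had a median of 30.2 CPM late at 11 °C, against 12.5 CPM early. At 2 °C it had 4.33 to 22.6 CPM late (median 13.7 CPM) and, early, a median of 3.36 CPM. These values are part of the choice and carry no test.

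Together the members made up a large part of the RNA counted in late cold buds. At 4 °C they took 9.17 to 12.5% of a library's counts late (median 11.1%) and 2.94 to 4.81% early (median 4.05%), without overlap. The most abundant member, singled out after its values were seen, ranked 24th in the choice and in late 4 °C libraries held about as many counts as all the others. At 4 °C it had 32543 to 70972 CPM late with a median of 60975 CPM, and 8458 to 19530 CPM early with a median of 10048 CPM. Its log2 fold change was 2.35 ± 0.27 (SE), with an edgeR adjusted p of 0.000273. Leaving it out, the other members took 4.10 to 6.52% late (median 5.53%) and 1.87 to 3.96% early (median 2.69%), again without overlap.

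**Figure D3:**
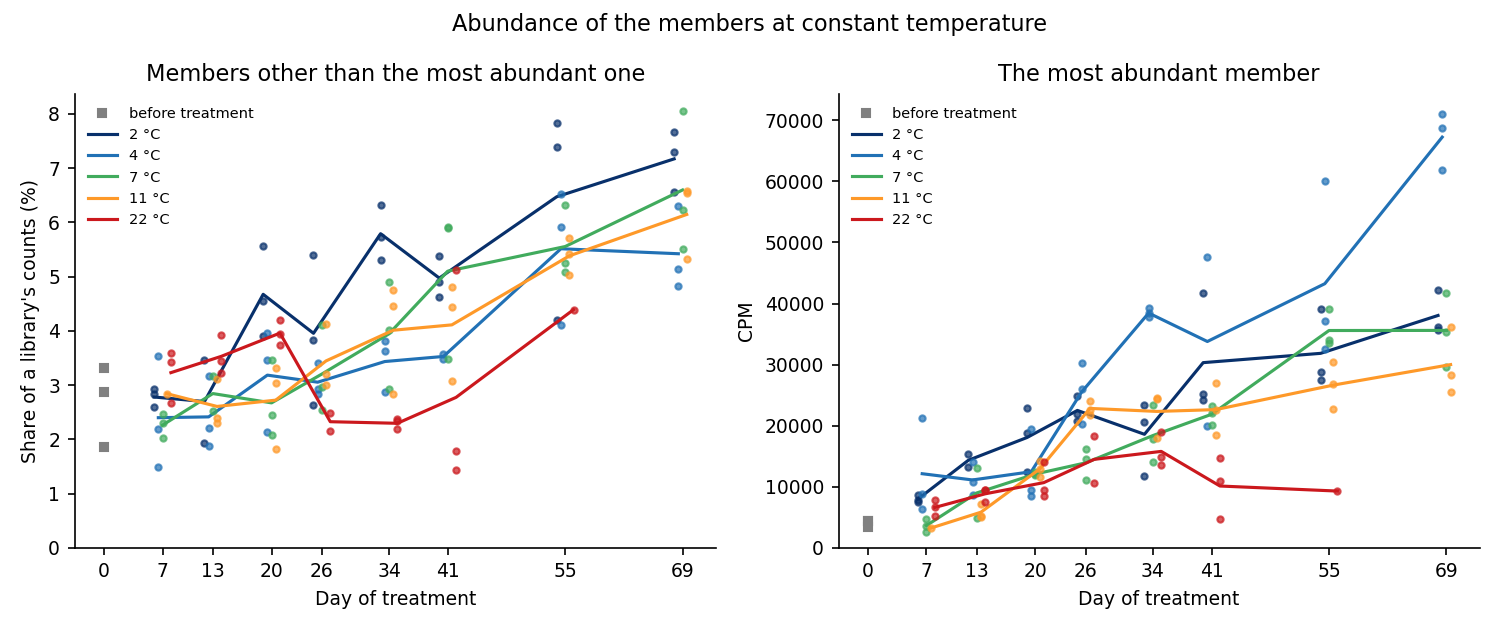
Share of a library's counts (%) taken by the members other than the most abundant one (left) and CPM of the most abundant member (right) against day at constant temperature; points are libraries and lines join group means. On days 55 and 69 at 4 °C the most abundant member lies between 32543 and 70972 CPM, and at 22 °C no library from day 34 on exceeds 19041 CPM.

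The same share in the libraries of the choice, as a description, was 8.12 to 11.3% late and 3.47 to 7.44% early at 2 °C for all members. It was 8.62 to 11.6% late and 3.01 to 4.71% early at 7 °C, and 7.98 to 10.2% late and 2.81 to 4.47% early at 11 °C. The pretreatment libraries gave 2.28, 3.21 and 3.77%, and there the most abundant member had 3387, 4324 and 4419 CPM.

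The warm series at 22 °C was the contrast to storage in the cold. Its group means of the members were 5.52 on day 7, 5.78 on day 13, 5.86 on day 20, 5.67 on day 26, 5.51 on day 34, 5.46 on day 41 and 6.10 on day 55. Day 55 had only 1 library and day 26 only 2, of which the First-set library gave 5.91 and the Second-set library 5.43. Within sets, 0 members (of all but 1, which missed the filter on low counts) had a slope with day that passed edgeR's adjusted test in either direction, where 0% of all 12288 genes were called higher and 0.0163% lower. DESeq2 also called 0, and at an unadjusted p under 0.05 edgeR found 18 members higher and 0 lower, against 4.42% and 2.87% of all genes. The members' median slope was 0.23 on the log2 scale per 10 days, against 0.06 for all genes, with 30 members negative and a smallest adjusted p of 0.306. Without replicate 2, whose libraries include the lone one of day 55, the median was -0.21 and 45 members were positive. Without the day 55 library alone, a fit added after the data were seen, it was 0.13 with 98 positive and 0 called. Without the set term 10 members were called higher and 5 lower, with a median of -0.06. The share of all genes called in that fit is not given here, so these calls are not read as a result about the members.

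Gene 23279 had 28.6 CPM in the 1 library of day 55 at 22 °C. It had 0.985 to 48.7 CPM on days 34 and 41 with a median of 8.67 CPM, and 4.63 to 15.97 CPM on days 13 and 20 with a median of 6.54 CPM. Its slope of 1.01 ± 0.27 (SE) on the log2 scale per 10 days had an edgeR adjusted p of 0.306 and was not called. The slope of the most abundant member at 22 °C was -0.09 ± 0.25 (SE), with an edgeR adjusted p of 0.965.

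A direct test of slope at 4 °C minus slope at 22 °C, over days 7 to 55 in 1 fit of 38 libraries, called 0 members in either direction, where 0.121% of all genes were called higher and 0.0379% lower. At an unadjusted p under 0.05 edgeR found 17 members higher and 1 lower, against 4.16% and 5.11% of all genes. DESeq2 called 2 higher after adjustment, against 0.364% of all genes. The members' median difference was 0.03 per 10 days with a median SE of 0.25, against -0.04 for all genes, and the smallest adjusted p was 0.0622. With an SE of that size, the missing calls do not show that the slopes were alike. In the same fit the slope at 4 °C alone was called higher for 65 members (43.3%, against 2.78% of all genes) and lower for 0 (against 3.95%), with a median of 0.25 per 10 days and a median SE of 0.09. Without replicate 2 the test of the difference called 5 members, with a median difference of 0.49. The slope at 4 °C called 6 members without replicate 1. The shares of all genes in these fits are not given here, so the counts show only that the calls depended on single replicates.

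On the days when both temperatures had Second-set libraries, 34, 41 and 55, calls higher at 4 °C exceeded the all-gene share. Lower calls fell below it. At 4 °C minus 22 °C 34 members (22.7%) were higher and 13 (8.67%) lower by edgeR's adjusted test, against 12.8% and 15.6% of all genes. The 34 differed by a median log2 of 1.73 (0.92 to 5.02) and the 13 by -1.58 (-2.78 to -0.94). The median over all 150 was 0.24, and over all 11610 genes -0.06. The number called was 24 without replicate 1, 54 without replicate 2 and 30 without replicate 3. The shares of all genes in these fits are not given here, so the counts show only how the calls moved. At 22 °C the day 55 group had only 1 library of at least 500000 counts.

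The most abundant member had 19913 to 60010 CPM in the 8 libraries at 4 °C with a median of 38056 CPM, and 4648 to 19041 CPM in the 7 at 22 °C with a median of 13535 CPM. The ranges did not overlap, and the log2 difference was 2.03 ± 0.51 (SE) with an edgeR adjusted p of 0.00638. Gene 23279 had 16.6 to 82.3 CPM at 4 °C (median 22.7 CPM) and 0.985 to 48.7 CPM at 22 °C (median 8.68 CPM). Its ranges overlapped, with a log2 difference of 1.46 ± 0.43 (SE) and an edgeR adjusted p of 0.0175. Gene 40756 differed by 1.76 ± 0.51 (SE), with an edgeR adjusted p of 0.0153, and had 20.6 to 140 CPM at 4 °C and 7.44 to 41.3 CPM at 22 °C.

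Among the cold temperatures the members' mean log2 level was lower at 2 °C than at 11 °C, but their share of the counts was not. In the libraries of days 26, 34 and 41, unused in the choice, the mean log2(CPM + 1) over the members was 5.47 to 5.78 in the 9 libraries at 2 °C (median 5.62), and 5.61 to 6.31 in the 9 at 11 °C (median 6.13), so the ranges overlapped. The members' share of a library's counts was 5.11 to 9.07% at 2 °C (median 7.48%) and 5.30 to 7.05% at 11 °C (median 6.29%). Without the most abundant member the medians were 5.31% at 2 °C and 4.13% at 11 °C, and these ranges overlapped too. At 2 °C minus 11 °C 48 members (32%) were lower and 19 (12.7%) higher by edgeR's adjusted test, against 13.7% and 12.5% of all genes. The share called higher was thus near that of all genes. The 48 differed by a median log2 of -1.24 (-2.67 to -0.51) and the 19 by 1.11 (0.56 to 2.61). The median over all 150 was -0.48, and over all 10737 genes -0.03. The number called was 74 without replicate 1, 47 without replicate 2 and 38 without replicate 3. The shares of all genes in these fits are not given here, so the counts show only how the calls moved. In the late libraries of the choice, as a description, 83 members were highest at 11 °C, 45 at 7 °C and 22 at 2 °C.

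The 2 temperature tests share no library. Of the 67 called at 2 °C minus 11 °C and the 47 called at 4 °C minus 22 °C, 29 were called in both, which is 43.3% of the first and 61.7% of the second. Among these 29, 10 were higher in both, 10 lower in both, and 9 lower at 2 °C than at 11 °C but higher at 4 °C than at 22 °C. No member was higher at 2 °C than at 11 °C and lower at 4 °C than at 22 °C. Called in neither were 65 members. Over the 10205 genes tested in both, 970 were called in both, which is 36.1% of those called at 2 °C minus 11 °C and 35% of those called at 4 °C minus 22 °C. Of the 970, 39.1% were higher in both, 44.9% lower in both, 11% lower at 2 °C but higher at 4 °C, and 4.95% the reverse.

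**Figure D4:**
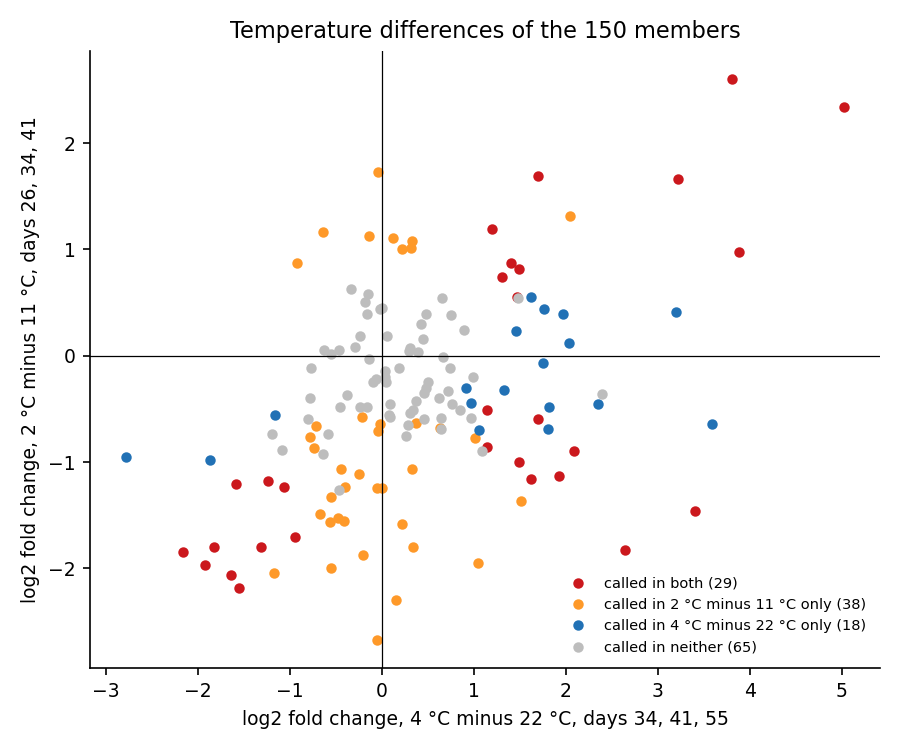
Each point is 1 of the 150 members; the horizontal axis is the log2 fold change at 4 °C minus 22 °C on days 34, 41 and 55, the vertical axis that at 2 °C minus 11 °C on days 26, 34 and 41, and colours give the calls. Most points lie below 0 on the vertical axis (median -0.48), while 88 lie right of 0 on the horizontal axis (median 0.24).

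At 2, 7 and 11 °C themselves, the days that the choice left out allow a further test. In days 34 and 41 minus days 7 and 26, averaged over the 3 temperatures, 13 members (8.67%) were higher and 0 lower by edgeR's adjusted test, against 0.418% of all 12447 genes called higher and 1.66% lower. The median log2 difference was 0.43 with 6 of 150 negative, against 0.01 for all genes. By temperature, the median was 0.66 at 2 °C with 1 call, 0.49 at 7 °C with 2 calls and 0.18 at 11 °C with 0 calls, all higher (backgrounds 0.0161%, 0.177% and 0% higher, and 0.0643%, 0.747% and 0.0482% lower). Days of a period were pooled without a term for day, so the spread also held differences between days. Day 7 gave 3 early libraries at 2 °C and at 7 °C but 1 at 11 °C. The 3 medians therefore do not cover like intervals. At 11 °C day 7 had 1 library left, edgeR found 11 members higher at an unadjusted p under 0.05, against 2.81% of all genes, and DESeq2 called 0. In the average DESeq2 called 29 higher, against 1.37% of all genes. The count was 17 without replicate 1, 0 without replicate 2, 5 without replicate 3 and 4 with libraries of at least 1000000 counts. With day 26 alone as the early period it was 0, where the median was 0.31 and 9 members were negative. The shares of all genes in these fits are not given here, so the counts show only how the calls moved. The minimum of 1000000 counts removed every day 7 library at 2 °C (816780 to 985539 counts). The change at 2 °C minus that at 11 °C, a contrast added after the data were seen, called 0 members by edgeR and 0 by DESeq2, with 22 higher and 2 lower at an unadjusted p under 0.05, against 5.1% and 4.7% of all genes. In that contrast 0% of all genes were called higher, and the members' smallest adjusted p was 0.371.

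Gene 23279 had 18.5 to 42.6 CPM on days 34 and 41 at 2 °C (median 39.7 CPM), 13.8 to 42.2 CPM at 7 °C (median 27.1 CPM) and 31.2 to 52.9 CPM at 11 °C (median 38.6 CPM). Averaged over the 3 temperatures its log2 difference from days 7 and 26 was 1.36 ± 0.22 (SE), with an edgeR adjusted p of 0.000404. Gene 40756 differed by 1.37 ± 0.29 (SE), with an edgeR adjusted p of 0.005.

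In the fluctuating regime the members stood higher late after 2 °C, and their late and middle ranges overlapped in the other arms. After 2 °C the group means were 5.72 on day 34, 5.58 on day 41, 6.14 on day 55 and 6.39 on day 69. After 7 °C they were 5.84, 6.004, 6.09 and 6.28 on the same days, and after 11 °C 5.80, 5.83, 5.998 and 6.18. The 5 late libraries after 2 °C (6.10 to 6.47) all stood above the 6 of days 34 and 41 (5.50 to 5.84). The ranges were 5.88 to 6.39 late and 5.84 to 6.04 before after 7 °C, and 5.93 to 6.45 late and 5.55 to 5.98 before after 11 °C. The mean over the 7171 genes past the abundance minimum was 4.89 late and 4.96 before after 2 °C, 4.99 late and 4.88 before after 7 °C, and 4.996 late and 4.79 before after 11 °C. In the last 2 arms it was thus also higher late.

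Averaged over the 3 arms, days 55 and 69 minus days 34 and 41 were called higher for 19 members (12.7%) and lower for 0, where 0.851% of all 11521 genes were called higher and 1.54% lower. The median log2 fold change was 0.27 with 140 of 150 positive, against 0.02 for all genes. Days of a period were pooled here too, without a term for day. After 2 °C the median was 0.75, 5 members were negative, 18 were called higher and 0 lower (backgrounds 0.486% and 0.885%). After 7 °C the median was 0.11, with 97 positive and 0 called by edgeR (background 0%), 25 higher at an unadjusted p under 0.05 (7.86% of all genes) and 2 called higher by DESeq2 (0.113% of all genes). After 11 °C the median was 0.01, with 78 positive and 1 called, gene 23279 (background 0.00868%). The change after 2 °C minus the change after 11 °C, a contrast added after the data were seen, had a median of 0.66 and a median SE of 0.44 and called 0 members by edgeR (background 0.0174% higher), with 51 higher and 2 lower at an unadjusted p under 0.05, against 5.52% and 7.93% of all genes. Its smallest adjusted p was 0.0574, and DESeq2 called 1 member higher and 1 lower, against 0.104% and 0.182% of all genes. Averaged over the arms, the count was 8 without replicate 1, 4 without replicate 2 and 6 without replicate 3. After 2 °C alone it was 0 both without replicate 2 and without replicate 3, with medians of 0.60 and 0.91. The shares of all genes in the fits without a replicate are not given here, so these counts show only how the calls moved.

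**Figure D5:**
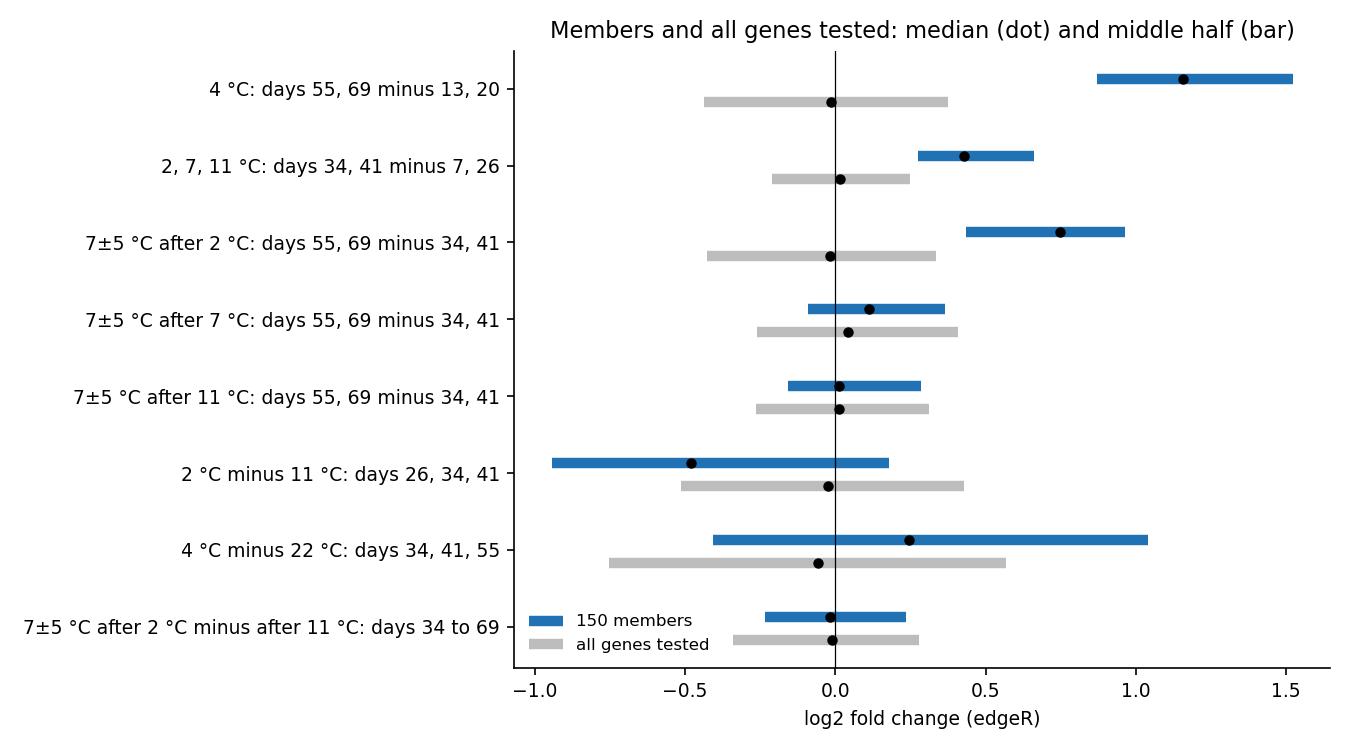
Median (dot) and interquartile range (bar) of the log2 fold changes over the 150 members and over all genes tested. At 4 °C the members' median is 1.16 with an interquartile range of 0.87 to 1.52, against -0.01 for all genes; after 7 °C and after 11 °C it is 0.11 and 0.01.

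Gene 23279 after 11 °C had 37.2 to 85.5 CPM late (median 77.8 CPM) and 14.8 to 21.9 CPM on days 34 and 41 (median 18.8 CPM), without overlap. Its log2 fold change was 1.60 ± 0.26 (SE), with an edgeR adjusted p of 0.00671. After 2 °C it had 13.3, 17.5, 34.9, 42.01 and 43.5 CPM late and 7.78 to 15.1 CPM before (median 11.6 CPM), with a log2 fold change of 1.53 ± 0.27 (SE) and an edgeR adjusted p of 0.00311. After 7 °C it had 35.02 to 79.5 CPM late (median 45.1 CPM) and 18.4, 22.9, 25.8, 29.5 and 37.3 CPM before, and its change of 0.73 ± 0.27 (SE) was not called, with an edgeR adjusted p of 0.338. Gene 40756 was called after 2 °C, where it had 51.5, 55.4, 77.8, 78.2 and 89.7 CPM late and 13.8 to 41.2 CPM before (median 24.2 CPM), without overlap. Its log2 fold change there was 1.64 ± 0.33 (SE), with an edgeR adjusted p of 0.00639.

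The temperature before day 26 was compared over all 4 days of the fluctuating regime. After 2 °C minus after 11 °C 9 members (6%) were lower and 2 (1.33%) higher by edgeR's adjusted test, against 1.3% and 0.884% of all genes. The median was -0.02 for the members and -0.01 for all 11422 genes. Gene 23279 was among the 9, with 7.78 to 43.5 CPM after 2 °C (median 13.3 CPM) and 14.8 to 85.5 CPM after 11 °C (median 29.6 CPM). Its log2 difference was -1.02 ± 0.16 (SE), with an edgeR adjusted p of 0.00393. The number called was 5 without replicate 1 and 0 without replicate 2 or without replicate 3. The shares of all genes in these fits are not given here, so the counts show only how the calls moved.

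A comparison added after the data were seen set day 7 against untreated buds. Members stood lower in the first week at 2 °C. On day 7 at 2 °C the mean log2(CPM + 1) over the members was 4.96 ± 0.12, against 5.46 ± 0.07 in pretreatment buds (SD, n = 3 each). At 2 °C on day 7 minus pretreatment, 26 members (17.4% of those tested) were lower and 6 (4.03%) higher by edgeR's adjusted test, against 3.25% and 3.54% of all 12479 genes. The 26 differed by a median log2 of -2.12 (-4.25 to -1.14) and the 6 by 2.78 (1.40 to 4.53). Over the members tested the median was -0.66, and over all genes -0.12.

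At 7 °C 8 were lower and 1 higher (backgrounds 0.761% and 0.569%), with a median of -0.21. At 11 °C, where day 7 had 1 library, edgeR called 0 members (backgrounds 0.0321% higher and 0% lower) and DESeq2 1, with 19 higher and 4 lower at an unadjusted p under 0.05, against 3.96% and 2.04% of all genes. The library names give the 3 pretreatment libraries 1 sample number, so they may be 1 sample read again, and their spread may then be technical. Counts with libraries left out, and the DESeq2 count at 11 °C, are given here without the share of all genes. They show only that the calls depended on single libraries and on the tool. At 2 °C the number called was 89 without replicate 1, 3 without replicate 2 and 5 without replicate 3. At 7 °C it was 53 without replicate 1, and 0 without replicate 2, without replicate 3 and with libraries of at least 1000000 counts. At 11 °C it was 27 without replicate 1. The same comparison averaged over the 3 temperatures called 7 lower and 1 higher (backgrounds 0.833% and 0.817%).

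Gene 21354 was among those lower at 2 °C. It had 4.17, 0 and 1.22 CPM on day 7, on 4, 0 and 1 counts, against 10.98, 20.6 and 33.7 CPM before treatment, with a log2 difference of -3.57 ± 0.80 (SE) and an edgeR adjusted p of 0.0171.

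Over the 3 tests of time in libraries outside the choice, which share no library, 5 members were called in all 3, 14 in 2, 73 in 1 and 58 in none (3.33%, 9.33%, 48.7% and 38.7%). Of the 10132 genes tested in all 3, 0.0888% were called higher in all 3, 0.454% in 2, 3.81% in 1 and 95.6% in none. These tests are late minus early at 4 °C, days 34 and 41 minus days 7 and 26 at 2, 7 and 11 °C, and late minus middle in the fluctuating arms. Gene 23279 and gene 40756 were called in all 3. Of the 84 members called at 4 °C, 37 were lower and 9 higher at 2 °C than at 11 °C, and 38 were not called there. Of all 10737 genes tested there, 13.7% were lower and 12.5% higher. The split among all genes called at 4 °C was not computed, so whether the members differ from those genes is not known.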

How the data were processed

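RNA of buds was measured in 52 groups of 3 libraries. The authors deposited whole-number counts per gene without normalization. FastQC, STAR and DESeq2 are named in the submitters' processing notes, and the genome build, annotation and counting tool are not given in the sources used here. Groups, days and replicate numbers came from the labels. No 2 libraries held identical counts, and 0 columns were left unused. Libraries under 500000 counts were left out.

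The 150 genes, and the tests run on them, were chosen with earlier results of these data known. The test was the quasi-likelihood F test of edgeR 4.0.16, with TMM scaling and filterByExpr, under R 4.3.3. It was fitted on the whole table, and p-values were adjusted by Benjamini-Hochberg over all genes tested and called under 0.05. SEs are the absolute log2 fold change divided by the square root of F. The fits were tested on simulated data. DESeq2 1.42.0, RLE scaling, no filter, other depth minimums, a replicate block and leaving out each replicate number were alternatives.

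Named genes are the 2 of highest rank in the choice and the 2 with the lowest change at 4 °C, by line number. Lists of genes by function could not be applied, since lines carry no identifier. Replicate numbers were not found to pair libraries. The day 7 minus pretreatment comparison and the contrasts between the changes at or after 2 °C and 11 °C were added after the data were seen.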

Additional observations from a re-analysis of the deposited data

Results flagged for a closer look

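In all, 28 sets of libraries were checked, for the member mean and, at 4 °C only, for the 4 named genes. Single libraries stood apart in 2, both for named genes, and chance alone sets about 1 in 20 such sets apart. For gene 40756 at 4 °C, replicate 3 of day 55 had a log2(CPM + 1) of 4.43, against 5.82 to 6.44 in the other late libraries. For gene 21354 at 4 °C, replicate 1 of day 55 had 4.62, against 2.35 to 3.08 in the other late libraries.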

How the results depend on the processing

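Counts of members called moved with the replicates left out: over the 3 replicate numbers from 3.33 to 80.7% of the members at 4 °C, and, as numbers of members, 0 to 5 for the slope difference, 4 to 8 in the fluctuating arms, 0 to 17 at 2, 7 and 11 °C, 38 to 74 at 2 °C minus 11 °C, 24 to 54 at 4 °C minus 22 °C, 0 to 5 for after 2 °C minus after 11 °C, and 0 to 59 for day 7 minus pretreatment. DESeq2 called 31 in the fluctuating arms, 29 at 2, 7 and 11 °C, 2 for the slope difference, 18 for after 2 °C minus after 11 °C and 16 for day 7 minus pretreatment. Without a filter the last 2 gave 17 and 14, and with all libraries 7 and 14. With libraries of at least 1000000 counts 4 were called at 2, 7 and 11 °C. That minimum left no day 7 library at 2 °C (816780 to 985539 counts). The early period at 2 °C was then day 26 alone, and day 7 minus pretreatment covered only 7 and 11 °C. Without the set term the 22 °C slope called 15, and with day 26 alone as the early period 2, 7 and 11 °C gave 0. With the replicate block 63 were called at 4 °C, 19 in the fluctuating arms, 10 at 2, 7 and 11 °C and 5 for day 7 minus pretreatment. The mean correlation of same-numbered libraries lay between -0.12 (4 °C) and 0.12 (2 °C minus 11 °C, 25 of 45 pairs over 0.1), and in no comparison was every pair over 0.1, so the numbers were not taken to pair them. These counts are given here without the share of all genes called in each fit, so they show only how the calls moved. The cause of these shifts was not tested. Under other ways of choosing the 150 genes, 79 to 85 were called at 4 °C. With replicates left out, the log2 fold change at 4 °C ran over -0.58 to 0.86 for gene 21354 and -0.028 to 0.54 for gene 17381, none of these called, and both were below 0 without replicate 1. The 58 members under 30 CPM rest on few counts in shallow libraries.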
